A study of Rattus norvegicus with 96 samples.

Results

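The 10 genes described here are used as markers of microglia, the resident macrophages of the brain. They are Cx3cr1, P2ry12, C1qa, C1qb, C1qc, Aif1, Csf1r, Itgam, Cd68 and Tyrobp. Every probe set annotated to 1 of these single symbols was taken, which gave 12 probe sets of the 31042 that are not array controls, or 10 of 14217 named genes. P2ry12 and Aif1 had 2 probe sets each and the other 8 genes had 1. The study measured RNA from the central nucleus of the amygdala, a forebrain nucleus that takes part in fear, stress and alcohol drinking, on Affymetrix expression arrays. The 96 arrays came from 10 rat lines in 5 pairs, each pair holding 1 line bred to drink alcohol readily and 1 line bred to avoid it. The preferring lines were HAD1 (9 arrays), HAD2 (10), P (10), AA (10) and sP (8), against the non-preferring lines LAD1 (10), LAD2 (10), NP (10), ANA (10) and sNP (9). The names stand for high and low alcohol drinking, alcohol-preferring and non-preferring, Alko Alcohol and Alko Non-Alcohol, and Sardinian preferring and non-preferring. Each array carried the RNA of 1 animal, made into biotin-labelled cRNA from 25 ng of total RNA in 2 amplification cycles. The labels give no treatment, and no sex or age is stated in them. Lines kept apart also drift by chance, and within a pair drift and selection cannot be told apart.

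Microglia survey the tissue with moving processes, clear debris and dying cells, and tag synapses for removal through the classical complement pathway. Cx3cr1 is the receptor for the neuronal chemokine fractalkine, and P2ry12 is the purine receptor that guides microglial processes to released ATP and ADP. C1qa, C1qb and C1qc encode the 3 chains of C1q, the protein that starts the classical complement pathway. Csf1r is the receptor whose signal keeps microglia alive, and Tyrobp (DAP12) is the signalling adaptor of receptors such as Trem2. Aif1 (Iba1) binds actin in ruffling membranes, Itgam is the alpha chain of complement receptor 3 (CD11b), and Cd68 is a lysosomal protein of phagocytes. Macrophages outside the brain use most of these genes too, and P2ry12 is the one most often used to tell microglia from them.

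Promoter sequences were at hand for 6 of the 10 genes, from RefSeq's rat assembly GRCr8. Those of Cx3cr1, C1qa and C1qb are shown because Cx3cr1 carries line differences described next and the C1q genes vary together over arrays. C1qb, C1qc and C1qa also lie side by side on rat chromosome 5, between Ephb2 and Epha8. Each window covers 250 bases before and 50 bases after the start of the gene, read 5′ to 3′ along the gene's strand. Capitals mark GAGGAA, the purine-rich core bound by PU.1, and GGAAGT, a common ETS family core, on either strand (TTCCTC and ACTTCC on the other). The motifs were chosen after the sequences had been seen. The Cx3cr1 window is chr8:128677017-128677316 on the minus strand, the C1qa window is chr5:154419884-154420183 on the minus strand, and the C1qb window is chr5:154407778-154408077 on the minus strand.
Cx3cr1: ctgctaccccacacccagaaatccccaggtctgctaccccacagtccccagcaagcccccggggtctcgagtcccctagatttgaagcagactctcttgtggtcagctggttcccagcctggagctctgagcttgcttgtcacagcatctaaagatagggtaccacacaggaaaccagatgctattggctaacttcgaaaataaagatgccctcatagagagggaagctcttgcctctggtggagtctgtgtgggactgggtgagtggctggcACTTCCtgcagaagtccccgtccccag
C1qa: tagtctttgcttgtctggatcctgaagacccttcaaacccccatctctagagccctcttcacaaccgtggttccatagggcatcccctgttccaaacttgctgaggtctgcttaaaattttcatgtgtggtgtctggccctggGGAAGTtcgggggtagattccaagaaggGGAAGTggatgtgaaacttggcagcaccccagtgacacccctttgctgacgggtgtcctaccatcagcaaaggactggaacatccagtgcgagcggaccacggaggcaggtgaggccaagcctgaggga
C1qb: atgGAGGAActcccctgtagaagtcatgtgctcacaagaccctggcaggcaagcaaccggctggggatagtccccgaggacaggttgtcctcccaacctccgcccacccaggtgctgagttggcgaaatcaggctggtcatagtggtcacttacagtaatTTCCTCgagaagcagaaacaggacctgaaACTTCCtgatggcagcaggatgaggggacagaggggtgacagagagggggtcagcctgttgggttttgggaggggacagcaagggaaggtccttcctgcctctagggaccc
At least 1 of the motifs stood in 6 of the 6 windows and in 42.3% of 33469 rat promoters of the same length. GAGGAA stood in 4 of the 6 windows and in 27.6% of all promoters, and GGAAGT in 4 of the 6 and in 22.6%. These matches describe the letters of the windows and say nothing of binding.

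All values are log2 RMA values, in which 1 unit is a doubling, and the precision is set by the number of arrays. The median of an array was 7.77 at lowest and 8.03 at highest. A sign of RNA length is the GAPDH control signal at the 3′ end over that at the 5′ end. It averaged 3.84 ± 0.66 in HAD1 and 4.09 ± 0.46 in LAD1 (SD, n = 9 and 10, log2). It was 3.43 in HAD2 and 3.33 in LAD2, but 0.20 in P, 0.26 in NP, 0.43 in AA and 0.39 in ANA. In sP and sNP it was 0.30 and 0.37. For this reason lines were tested only against the other line of their pair. The HAD/LAD pairs, which alone held called markers with the arrays as labelled, are also those with the high ratio. The part of the ratio in that contrast between pairs was not tested. In 4 of the pairs some arrays resembled the opposite line more than their own over the genes that separate the lines, 14 arrays in all, and they are called opposite-scoring arrays. No HAD2 or LAD2 array was one of them. LAD1 36 is called HAD1 in its source name and was kept as LAD1, the line its title gives. The arrays sP 2 and sNP 2 differed from each other less than any other 2 arrays of a line pair (SD of the difference 0.09, against 0.16 for the next closest arrays, log2).

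Over all genes, 93 of the 96 arrays lay closest to the mean of their own line pair. The other 3 were AA 19, ANA 18 and ANA 20, which lay 0.13, 0.14 and 0.21 from the mean of the sP and sNP arrays and 0.30, 0.28 and 0.28 from that of the other AA and ANA arrays (SD over 14217 genes, log2). P2ry12 and C1qb showed the same split. P2ry12 (1380822_at) was 11.29 in AA 19, 11.29 in ANA 18 and 11.22 in ANA 20, the level seen in the sP and sNP arrays. C1qb was 9.23, 9.27 and 9.15 in the same arrays. In both genes the 3 arrays stood apart from the other 17 of the pair, high for P2ry12 and low for C1qb.

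A further array, LAD2 14, stood apart in the markers themselves. It was above all 9 other LAD2 arrays for 9 of the 10 genes, whereas 8.39% of all genes were, and the median excess of the markers over the mean of those 9 arrays was 1.4. Cd68, the lysosomal marker, exceeded that mean by 2.66, C1qc by 1.55, C1qa by 1.46, Tyrobp by 1.42, C1qb by 1.41 and Aif1 by 1.4. The excess was 0.65 for Itgam, 0.59 for Csf1r and 0.23 for Cx3cr1. P2ry12 was not raised in it, at -0.02 from the mean. Of 28 other microglial and myeloid genes, 20 were above all other LAD2 arrays, against 10 of 29 inflammatory genes, 4 of 14 blood cell genes, 0 of 9 perivascular macrophage genes, 0 of 11 astrocyte genes and 0 of 14 neuronal genes. Among all genes the largest excesses, chosen after the values were seen, included Plac8 (6.13) and the MHC class II genes RT1-Da (5.91), Cd74 (5.77) and RT1-Db1 (4.76), which present antigen. The liver gene Alb was 4.74 higher, with an SD of 2.78 among the other LAD2 arrays. The part of other cells in this array was not tested. The HAD2 differences of Cx3cr1, C1qa, C1qb, C1qc and Cd68 and the median correlation of the markers are given with and without it. Values of other gene lists include it.

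**Figure D1:**
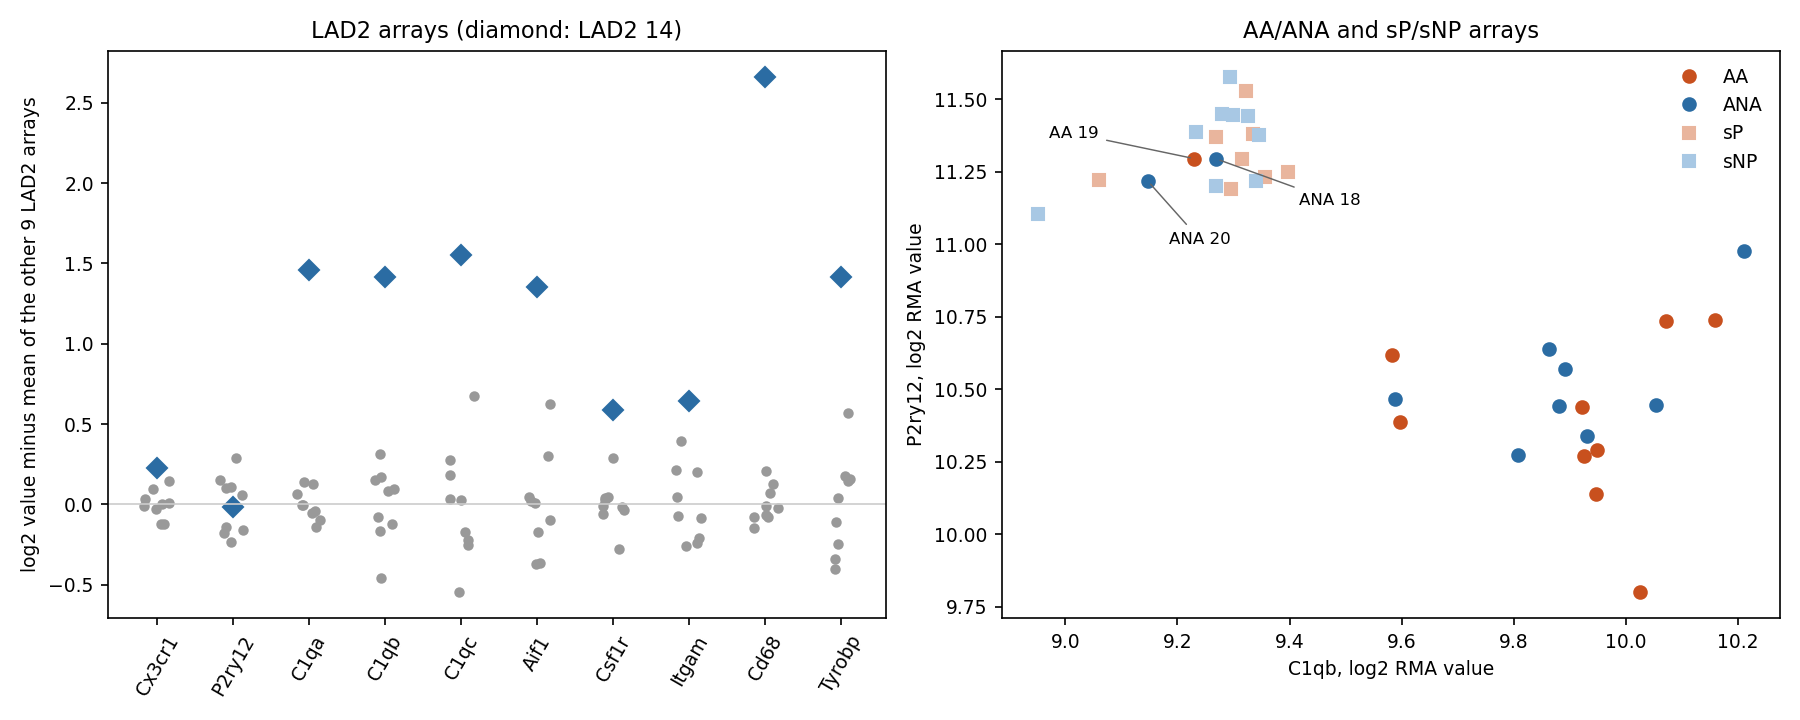
Left, log2 values of the 10 markers in the 10 LAD2 arrays minus the mean of the 9 arrays other than LAD2 14, which is the diamond and lies above the other arrays for 9 of 10 genes. Right, C1qb against P2ry12 (log2 RMA values) in each AA, ANA, sP and sNP array, where AA 19, ANA 18 and ANA 20 lie among the sP and sNP arrays.

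Cx3cr1 was lower in the preferring line of both HAD/LAD pairs. In HAD1 it was 7.30 at lowest, 7.64 at the median and 7.99 at highest, against 7.74, 8.04 and 8.19 in LAD1. The ranges overlapped, but 7 of 9 HAD1 arrays lay below every LAD1 array and 9 of 9 below the LAD1 mean. Cx3cr1 fell by 0.40 (SE 0.09), or 1.3-fold, in HAD1 relative to LAD1 (limma, Benjamini-Hochberg adjusted p = 0.0348). In HAD2 it was 7.14 at lowest, 7.38 at the median and 7.53 at highest, against 7.52, 7.65 and 7.87 in LAD2. The highest HAD2 array just passed the lowest LAD2 array, and 10 of 10 HAD2 arrays were below the LAD2 mean. Here it fell by 0.30 (SE 0.06), or 1.2-fold (limma, adjusted p = 0.00330), and by 0.28 without LAD2 14 (adjusted p = 0.00754). In bulk tissue, fewer microglia and less of the RNA in each microglial cell cannot be told apart, here and in every other result. The HAD1 call was lost when HAD1 21, 23, 24, 25, 26 or 29 or LAD1 31, 33, 34, 35, 36, 38 or 39 was left out, with differences of -0.41 to -0.36 and adjusted p of 0.0548 to 0.0766, while the HAD2 call was kept without any single array.

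**Figure D2:**
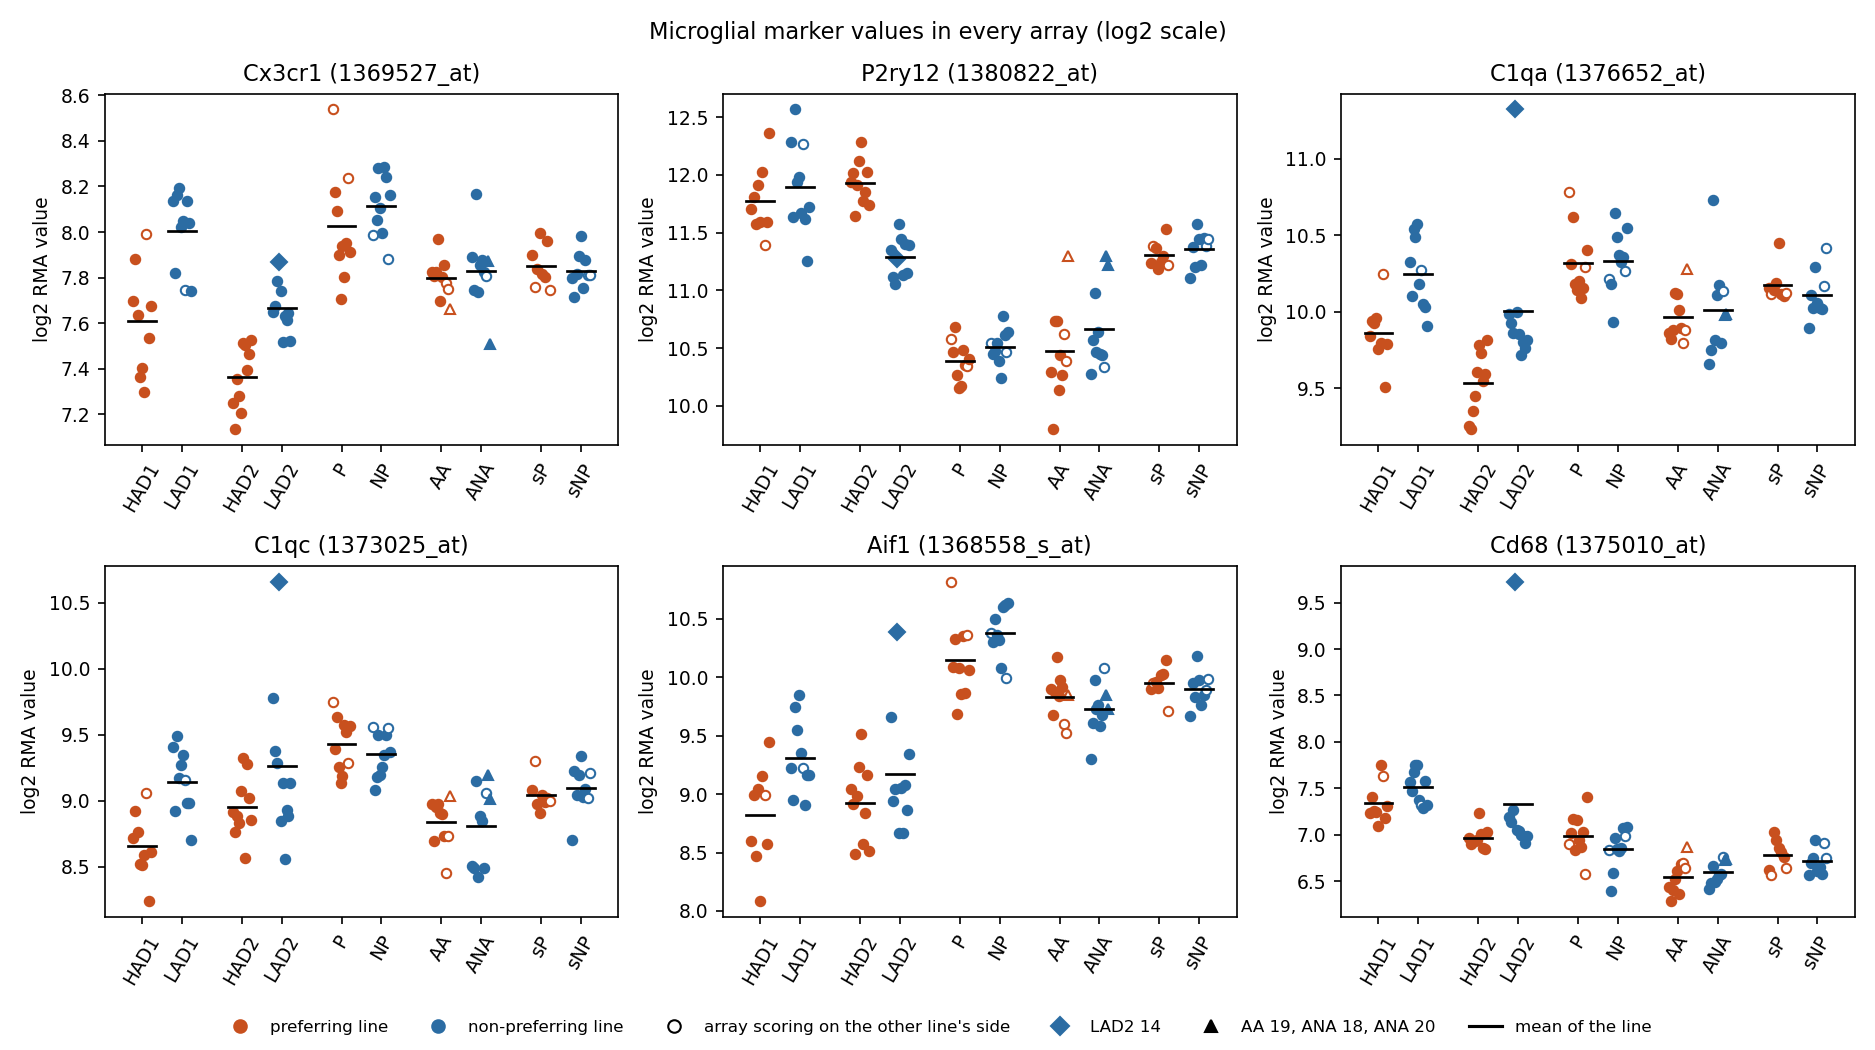
Log2 RMA value of 6 markers in each array, by line, with preferring lines in orange and non-preferring lines in blue, a bar at the line mean, hollow symbols for opposite-scoring arrays and triangles for AA 19, ANA 18 and ANA 20. Cx3cr1 sits lower in HAD1 than in LAD1 and lower in HAD2 than in LAD2, P2ry12 of HAD2 lies wholly above LAD2, and LAD2 14 (diamond) lies far above its line for C1qa, C1qc, Aif1 and Cd68.

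P2ry12 went the other way in 1 of these pairs. With its brighter probe set (1380822_at) HAD2 arrays ran from 11.64 through a median of 11.92 to 12.28, and LAD2 arrays from 11.06 through 11.31 to 11.58. The ranges did not overlap, and the share of all probe sets without overlap was not counted. P2ry12 rose by 0.64 (SE 0.08), or 1.56-fold, in HAD2 (limma, adjusted p = 4.62e-06), in a pair where 4.09% of all probe sets were called. The second probe set (1368728_at) ran from 8.40 through 8.68 to 8.84 in HAD2, against 7.83, 8.04 and 8.41 in LAD2. These ranges touched only at their ends, and this probe set rose by 0.55 (SE 0.08; limma, adjusted p = 7.76e-05). Both probe sets thus moved one way in HAD2, while Cx3cr1 of the same arrays moved the other way. In HAD1 and LAD1 the ranges overlapped widely, at 11.39 to 12.36 in HAD1 against 11.25 to 12.57 in LAD1. The HAD1 differences were -0.12 (SE 0.15; limma, adjusted p = 0.819) and 0.13 (SE 0.12; adjusted p = 0.752) with the 2 probe sets, which neither call a change nor show that the lines are alike.

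Of the complement chains, C1qc was lower in HAD1. It was 8.24 at lowest, 8.61 at the median and 9.06 at highest in HAD1, against 8.70, 9.16 and 9.49 in LAD1. The ranges overlapped, and all 9 HAD1 arrays were below the LAD1 mean. C1qc fell by 0.48 (SE 0.11), or 1.4-fold, in HAD1 (limma, adjusted p = 0.0266). This call was lost without HAD1 24, 25 or 29 or LAD1 31, 33, 34, 35 or 36, at adjusted p of 0.0516 to 0.0579. C1qa was 9.51, 9.84 and 10.25 in HAD1, against 9.91, 10.23 and 10.58 in LAD1, a difference of -0.39 (SE 0.10) that missed the threshold (limma, adjusted p = 0.0557). C1qb, which shares the protein and the locus, differed by -0.21 (SE 0.09; limma, adjusted p = 0.351). In the second HAD/LAD pair C1qa was 9.24, 9.57 and 9.82 in HAD2, against 9.72, 9.86 and 11.32 in LAD2, where the highest value is LAD2 14. The difference of -0.47 (SE 0.15) was not called with that array (limma, adjusted p = 0.0843). Without it C1qa fell by 0.32 (SE 0.08; limma, adjusted p = 0.0149). C1qc and C1qb differed by -0.31 (SE 0.18) and 0.14 (SE 0.17) in HAD2 with all arrays (limma, adjusted p = 0.408 and 0.707). Without LAD2 14 they differed by -0.15 (SE 0.13) and 0.28 (SE 0.13), and neither was called (limma, adjusted p = 0.590 and 0.299).

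The remaining markers were not called in either HAD/LAD pair. Aif1 (1368558_s_at) was 8.08, 8.99 and 9.44 in HAD1, against 8.90, 9.23 and 9.84 in LAD1, with a difference of -0.50 (SE 0.15; limma, adjusted p = 0.148). Its dimmer probe set (1369489_at) differed by -0.01 in HAD1, so the gene's 2 probe sets disagree in size. Tyrobp ran from 6.42 through 6.94 to 7.42 in HAD1 and from 6.90 through 7.33 to 7.74 in LAD1, a difference of -0.37 (SE 0.12; limma, adjusted p = 0.207). Csf1r, Cd68 and Itgam differed by -0.17, -0.16 and -0.08 in HAD1. With the brighter probe set of each gene, all 10 were below 0 in HAD1 relative to LAD1, as were 8017 of all 14217 genes. The second P2ry12 probe set was above 0, at 0.13. The median difference of the 10 genes was -0.29, beside -0.01 over all genes. Markers that vary together over arrays are not separate observations, here and in the next pair. In HAD2 relative to LAD2, Cd68 differed by -0.36 (SE 0.24) with LAD2 14 and by -0.10 (SE 0.06) without it, and neither value was called (limma, adjusted p = 0.468 and 0.459). With all arrays Aif1 (1368558_s_at), Itgam, Tyrobp and Csf1r differed by -0.24, -0.09, -0.08 and -0.01 in HAD2. Over the alternative fits, including that without LAD2 14, Aif1 ran from -0.31 to -0.11 and Itgam from -0.15 to -0.02. Tyrobp ran from -0.14 to 0.06 and Csf1r from -0.05 to 0.05. The median over the 10 genes in HAD2 was -0.17, beside -0.0039 over all genes, with 8 of them below 0, as were 7329 of all 14217 genes. Without LAD2 14 that median was -0.06, with 6 of the 10 genes below 0.

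Counted over the 12 probe sets, 2 were called in HAD1 against LAD1, both lower, where 0.963% of all probe sets were called. In HAD2 against LAD2, 3 were called, with 2 higher and 1 lower, where 4.09% of all probe sets were called. Without LAD2 14, 4 were called, with 2 higher and 2 lower, where the share over all probe sets was 3.61%. Without the 2 arrays of HAD1 and LAD1 that were opposite-scoring, 3 were called lower, beside 2.56% of all probe sets, and C1qa was the one added (-0.43; limma, adjusted p = 0.0153). Leaving out arrays because they resemble the other line widens line differences by construction, so these counts are no independent check.

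**Figure D3:**
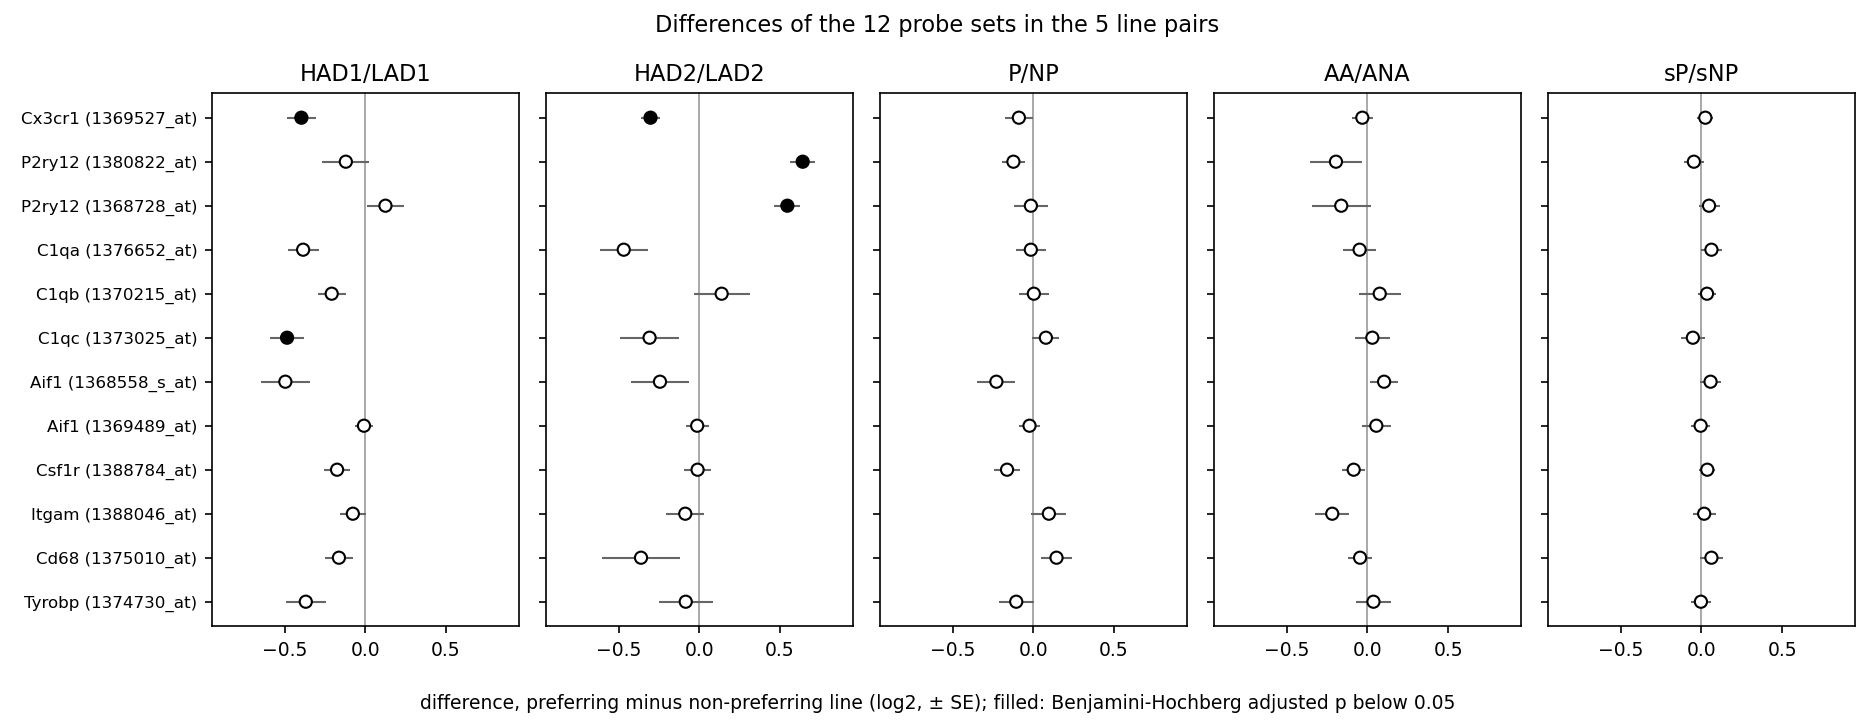
Difference of the preferring minus the non-preferring line (log2, with its standard error) for the 12 probe sets in each of the 5 line pairs, with filled points for adjusted p below 0.05. The 5 filled points are Cx3cr1 and C1qc in HAD1 against LAD1, and Cx3cr1 and both P2ry12 probe sets in HAD2 against LAD2.

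No marker was called in the other 3 pairs, where no probe set of any kind was called (P against NP 0%, AA against ANA 0% and sP against sNP 0% of 31042, limma). At an unadjusted p under 0.05, 0 of the 12 member probe sets passed in P, 1 in AA and 0 in sP, beside 1523, 1528 and 1341 of all probe sets. In P, Aif1 had 9.68, 10.09 and 10.82, against 9.998, 10.37 and 10.63 in NP, a difference of -0.23 (SE 0.12). The highest P array was P 1, which was also the highest P array for Cx3cr1 (8.54), C1qa (10.78), C1qb (10.81) and Tyrobp (9.83), and it is 1 of the opposite-scoring arrays. Without those arrays Aif1 differed by -0.39 (SE 0.10; limma, adjusted p = 0.0703) and 0 of 12 were called, where 1.62% of all probe sets were. In AA, Itgam had 6.44, 7.06 and 7.20, against 6.85, 7.23 and 7.47 in ANA, a difference of -0.22 (SE 0.11; limma, unadjusted p = 0.0497, adjusted p = 0.983). It was -0.24 without AA 19, ANA 18 and ANA 20, and again 0 of 12 were called, with 0% of all probe sets. Without the opposite-scoring arrays 0 of 12 were called in AA, beside 1.87% of all, and 0 of 12 in sP, beside 1.75%. In sP the 10 genes' differences lay within -0.05 and 0.06.

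In these 3 pairs the lines overlapped for every marker. Cx3cr1 had 7.71, 7.95 and 8.54 in P (lowest, median and highest), against 7.88, 8.13 and 8.29 in NP, a difference of -0.09 (SE 0.09). It had 7.66, 7.80 and 7.97 in AA, against 7.51, 7.84 and 8.17 in ANA, and 7.75, 7.83 and 7.995 in sP, against 7.71, 7.81 and 7.98 in sNP. Cx3cr1 of AA and sP thus spanned nearly the same values as in ANA and sNP. P2ry12 (1380822_at) had 10.15, 10.38 and 10.68 in P, against 10.24, 10.51 and 10.77 in NP, and 11.19, 11.27 and 11.53 in sP, against 11.10, 11.39 and 11.58 in sNP. In AA it had 9.80, 10.41 and 11.29, against 10.27, 10.52 and 11.29 in ANA, where the highest arrays are AA 19 and ANA 18. C1qa had 10.10, 10.13 and 10.45 in sP, against 9.89, 10.06 and 10.42 in sNP, a difference of 0.06 (SE 0.07). Cd68 had 6.58, 6.97 and 7.41 in P, against 6.40, 6.85 and 7.08 in NP, the largest positive difference of a marker in that pair at 0.14 (SE 0.10). None of these markers was called.

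Averaged over the 5 pairs with equal weight, Cx3cr1 was the only marker called. It fell by 0.16 (SE 0.03) in preferring lines (limma, adjusted p = 0.00146), 1 of 12 member probe sets beside 0.986% of all. C1qa stood at -0.17 (SE 0.05; limma, adjusted p = 0.0830). The Cx3cr1 average rests on the HAD/LAD pairs: it was -0.10 (adjusted p = 0.303) without HAD1 and LAD1 and -0.12 (adjusted p = 0.128) without HAD2 and LAD2. Without the 14 opposite-scoring arrays 1 of 12 was again called, beside 2.97% of all probe sets, and it was Cx3cr1. With the 5 line pairs as the replicates, 0 of 12 were called, as were 0% of all probe sets, and Cx3cr1 stood at -0.16 (SE 0.07; limma, unadjusted p = 0.0468, adjusted p = 0.999).

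The 5 within-pair differences varied among pairs for 3 of the 12 probe sets, beside 4.54% of all probe sets. They were both P2ry12 probe sets (moderated F of 8.70 and 4.70; limma, adjusted p = 0.000393 and 0.0402) and Cx3cr1 (F of 6.10; adjusted p = 0.00834). The P2ry12 differences ran from -0.20 in AA to 0.64 in HAD2 with the brighter probe set. C1qa was near the threshold with an F of 4.46 (limma, adjusted p = 0.0531). Without the opposite-scoring arrays 5 of 12 were called, beside 10.9% of all probe sets, and C1qa and Aif1 were added. Without LAD2 14, 4 of 12 were called, and the share over all probe sets is not given for that fit.

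Genes that work with the markers, and markers of other cells, were set beside them from lists. Of 28 other microglial and myeloid genes, 0 were called in any single pair with the arrays as labelled, and 23 were below 0 in HAD1 against LAD1 (median -0.15). Without the opposite-scoring arrays, 4 of the 28 fell in HAD1: Itgb2, the partner chain of Itgam that is also on the list of partners, by 0.74, the IgG receptor Fcgr2b by 0.67, Rgs10, a brake on G protein signalling, by 0.45, and Cd33, an inhibitory sialic acid receptor, by 0.39 (limma, adjusted p = 0.000370, 0.0373, 0.0348 and 0.0139). In the same setting Trem2, a receptor that signals through Tyrobp, fell by 0.45 and the lysosomal protease Ctss by 0.29 in P (limma, adjusted p = 0.00828 and 0.0179). In AA, Ctss fell by 0.28 and Olfml3 rose by 0.33 (limma, adjusted p = 0.0161 and 0.0388). This setting widens line differences by construction, so these calls are no independent check. In it 2.56%, 1.62% and 1.87% of all probe sets were called in HAD1, P and AA. In the mean over pairs with all arrays, Fcgr2b fell by 0.41 and Rgs10 by 0.15 (limma, adjusted p = 0.00501 and 0.0312).

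Of 10 ligands and partners of the markers and of 11 other complement genes, 0 were called in any pair with the arrays as labelled. Without the opposite-scoring arrays C1s and C1r, the proteases that C1q carries, fell by 0.68 and 0.45 in sP (limma, adjusted p = 0.00389 and 0.00608). That setting widens line differences by construction, and 1.75% of all probe sets were called in it. With the arrays as labelled the 2 differences were -0.45 and -0.23. Of 29 inflammatory genes, Gpnmb fell by 0.44 in HAD1 (limma, adjusted p = 0.0196). In HAD2, Lgals1 rose by 0.34, Il1a rose by 0.21 and the clearance receptor Axl fell by 0.43 (limma, adjusted p = 0.00682, 0.0497 and 0.0278), and Axl fell by 0.12 in the mean over pairs (adjusted p = 0.0304).

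Markers of other cell types moved in the HAD/LAD pairs as well. Of 9 perivascular macrophage genes, Pf4 fell by 0.64 in HAD1 (limma, adjusted p = 0.0100), and Lyve1, Pf4 and Stab1 rose by 0.48, 0.44 and 0.38 in HAD2 (limma, adjusted p = 0.00632, 0.00739 and 0.0105). Of 11 endothelial and pericyte genes, the efflux pump gene Abcb1a fell by 0.67 in HAD1 (limma, adjusted p = 0.0403). In HAD2 Abcb1a rose by 0.66, Rgs5 rose by 0.42 and Tek fell by 0.28 (limma, adjusted p = 0.00933, 0.00964 and 0.0235). Of 11 astrocyte genes, the connexin gene Gjb6 rose by 0.28 in HAD2 (limma, adjusted p = 0.0131), while Gfap differed by -0.38 and was not called. The lists were mixed in sign in HAD2. Above 0 were 5 of 9 perivascular macrophage genes (median 0.05), 6 of 11 endothelial and pericyte genes (0.01) and 8 of 11 astrocyte genes (0.05). Of all probe sets, 0.963% were called in HAD1 and 4.09% in HAD2. Of 15 oligodendrocyte, 14 neuronal, 14 blood cell and 8 choroid plexus genes, 0 were called in any pair with the arrays as labelled. In HAD1 against LAD1 all 10 markers were below 0 with their brighter probe sets. So were 10 of 11 astrocyte genes (median -0.07), 9 of 11 endothelial and pericyte genes (-0.04) and 12 of 15 oligodendrocyte genes (-0.02). The same held for 8 of 9 perivascular macrophage genes (-0.15), 9 of 14 neuronal genes (-0.01) and 8017 of all 14217 genes. Without the opposite-scoring arrays Abcb1a and Pf4 were again lower in HAD1, by 0.86 and 0.70, and Tek rose by 0.49 (limma, adjusted p = 0.000146, 0.00170 and 0.000714). In sP, where no marker was called in that setting, Vwf rose by 1.09, Abcb1a rose by 0.70, and Pf4 fell by 0.38 and Pdgfra by 0.21 (limma, adjusted p = 3.15e-08, 0.00679, 0.0260 and 0.0361). That setting widens line differences by construction, with 2.56% of all probe sets called in HAD1 and 1.75% in sP. With the arrays as labelled these sP differences were 0.55, 0.37, -0.20 and -0.14, and none was called. The part of these cell types in the marker differences was not tested.

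Within line pairs the markers tended to be high and low in the same arrays. After the mean of each line was removed, the 45 pairs of markers had a median Pearson r of 0.44 over the 19 arrays of HAD1 and LAD1, 0.61 over the 20 of HAD2 and LAD2, 0.47 over the 20 of P and NP, 0.26 over the 20 of AA and ANA and 0.37 over the 17 of sP and sNP. The median over all pairs of genes lay between 0.00045 and 0.05. Many other gene pairs reached the markers' median r all the same. They were 14.8% of all gene pairs in HAD1 and LAD1, 3.84% in HAD2 and LAD2 and 8.34% in P and NP. In AA and ANA they were 25.2%, and in sP and sNP 16.8%. Median Spearman rho of the markers was 0.48, 0.38, 0.46, 0.29 and 0.28 in that order. Of 225 correlations, 79 passed a permutation test within lines after Benjamini-Hochberg adjustment over all 225, and 77 of these were positive. With Spearman rho 46 passed. The share of all gene pairs that would pass such a test was not counted. The arrays that stood apart changed these values. The median r was 0.33 in HAD2 and LAD2 without LAD2 14, with 6 of 45 called after adjustment over the 45, against 24 with it after adjustment over the 225. In AA and ANA it was 0.39 without AA 19, ANA 18 and ANA 20, with 41 of 45 positive, against 34 of 45 with them.

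Aif1 and Csf1r had the highest median r over the 5 pairs, 0.78. Their r was 0.82 in HAD1 and LAD1 (rho 0.87; permutation p = 1e-05 for both, the smallest that 100000 permutations can give, adjusted p = 0.000562 and 0.000900), 0.84 in P and NP (rho 0.82; adjusted p = 0.00112 and 0.000900) and 0.78 in sP and sNP (rho 0.82; adjusted p = 0.00315 and 0.00360). Without the 2 arrays farthest from the Aif1 median, r was 0.81, 0.73 and 0.82 in those pairs. In HAD2 and LAD2 r was 0.64 with all arrays, 0.33 without LAD2 14 (permutation p = 0.187), and in AA and ANA it was 0.40 (adjusted p = 0.154). The complement chains were tied as well, with a median r of 0.72 for C1qa and C1qc, 0.67 for C1qb and C1qc and 0.62 for C1qa and C1qb. In AA and ANA, C1qb and C1qc had r = -0.05 over all 20 arrays, which fall into separate clusters, and r = 0.71 over the 17 arrays without AA 19, ANA 18 and ANA 20 (rho 0.73; permutation p = 0.000690 and 0.000940, adjusted over 45 pairs p = 0.0155 and 0.0325). P2ry12 and C1qb likewise had -0.57 over 20 arrays and 0.20 over 17. The lowest medians were -0.14 for P2ry12 and Itgam and -0.06 for Cx3cr1 and P2ry12. For Cx3cr1 and P2ry12 r ran from -0.21 to 0.57 over the line pairs, and it was called in 1 of them. In AA and ANA it was -0.10 over 20 arrays and 0.52 over the 17 arrays, where it was not called. Itgam, the integrin chain, followed the mean of the other markers with r between -0.01 and 0.40, the lowest of the markers in HAD1 and LAD1 (-0.01) and in sP and sNP (0.15). P2ry12 was lowest in HAD2 and LAD2 (0.07), C1qb in AA and ANA (0.11) and Cd68, beside Itgam, in P and NP (0.24 for both).

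**Figure D4:**
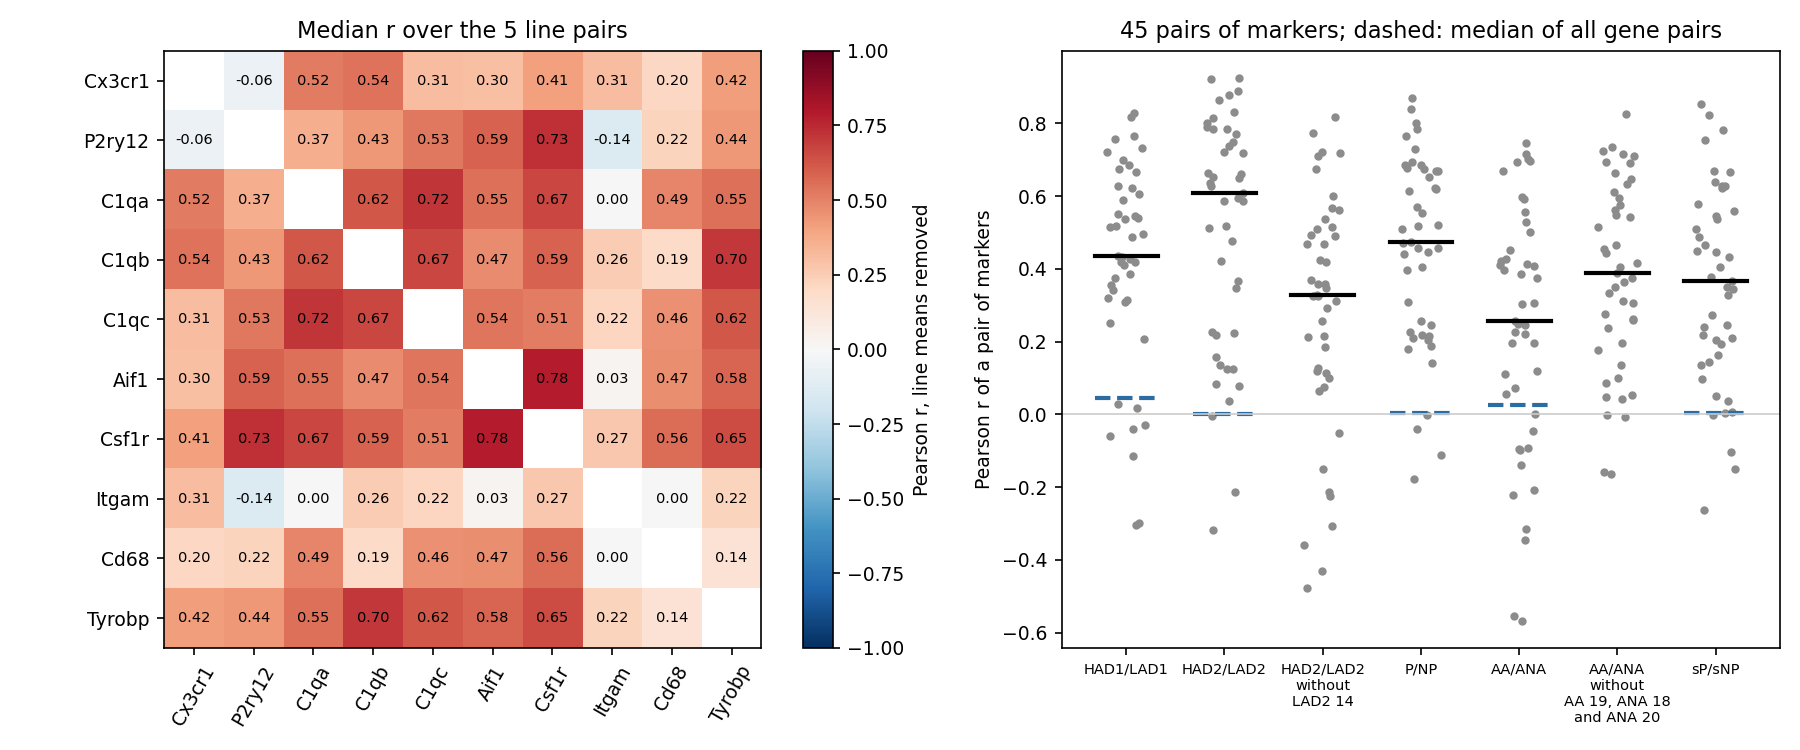
Left, median Pearson r over the 5 line pairs for each pair of markers, line means removed. Right, the 45 values of r in each line pair with their median (black bar) and the median over all pairs of genes (dashed), where the median falls to 0.33 without LAD2 14 and is 0.39 without AA 19, ANA 18 and ANA 20.

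Other genes followed the markers in the same arrays. The 10 genes with the highest median r with the mean of the markers were Tmem176a (0.87), Fcer1g (0.86), C3 (0.84), Tmem176b (0.80), Anxa3 (0.80), Itgb2 (0.80), Cd53 (0.79), Plek (0.79), LOC100910973 (0.78) and Ly86 (0.77), over 17 to 20 arrays in each of the 5 pairs. The median over the other 14207 genes was 0.04. Fcer1g encodes the common gamma chain of Fc receptors and Itgb2 the beta chain that pairs with Itgam, and C3 is the central complement protein. Of these 10, 7 were again among the 10 highest when LAD2 14, AA 19, ANA 18 and ANA 20 were left out. C3, Tmem176a and LOC100910973 were not. The mean of the 28 other microglial and myeloid genes had r between 0.78 and 0.95 with the mean of the markers, and the mean of 14 neuronal genes between -0.23 and 0.26. Other lists followed the markers too. The mean of 29 inflammatory genes had r between 0.38 and 0.80, and in AA and ANA its r (0.80) was above that of the microglial and myeloid genes (0.78). Oligodendrocyte genes had r between 0.33 and 0.65, astrocyte genes between 0.52 and 0.63 in 4 pairs and -0.06 in HAD2 and LAD2, and perivascular macrophage genes between 0.12 and 0.79. Endothelial and pericyte genes had r between -0.12 and 0.80, and blood cell genes between 0.02 and 0.40. For the log2 GAPDH ratio r with the mean of the markers lay between -0.16 and 0.37. These values describe arrays that share amplification and normalization, and 2 alternatives bear on that. With the GAPDH ratio also removed, the median r of the markers was 0.50, 0.64, 0.53, 0.27 and 0.39 in the order of pairs above. With each array centred on its median it was 0.37, 0.60, 0.47, 0.25 and 0.37.

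**Figure D5:**
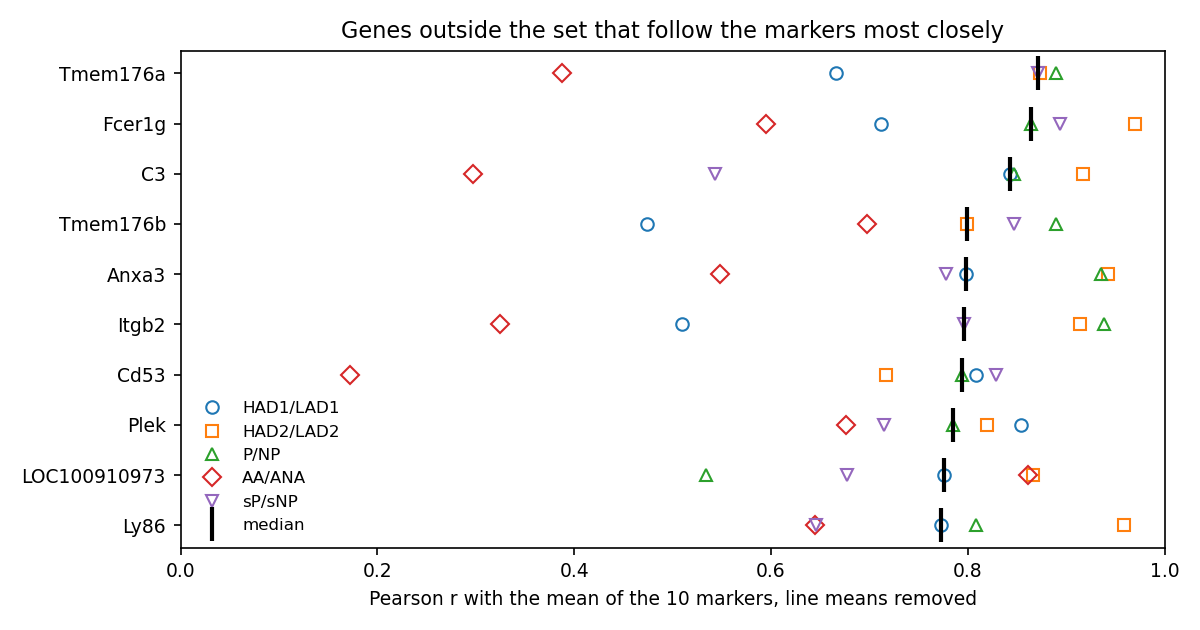
Pearson r of 10 other genes with the mean of the 10 markers in each line pair (line means removed), ordered by the median over the 5 pairs, shown as a black bar. The medians run from 0.77 for Ly86 to 0.87 for Tmem176a, and the AA and ANA value is the lowest for 8 of the 10 genes.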

How the data were processed

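Values were the authors' deposited log2 RMA values, 1 array per animal, where RMA is named in the submitters' processing notes with no version given. Joint or separate normalization of the line pairs is not stated there. The 57 array controls were dropped and 31042 probe sets kept, and the most intense probe set stood for a gene. Of these, 20826 had 1 symbol, 436 several and 9780 none listed. The members and lists were chosen with earlier results of these data known.

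Each pair was fitted on its own arrays, preferring minus non-preferring line, with limma 3.58.1 (lmFit, eBayes with intensity trend) in R 4.3.3. P-values were Benjamini-Hochberg adjusted over all 31042 probe sets and called below 0.05. The mean of the 5 differences and their variation (moderated F) used all arrays. Nothing beyond the animal numbers says how animals were housed or processed. On simulated data with 50 probe sets changed by 0.5 (log2), 84% were called in HAD1 against LAD1 and 78% in HAD2 against LAD2. With P, AA and sP against their partner lines 94%, 72% and 94% were called. At a change of 0.25 the shares were 32% in HAD1, 36% in HAD2, 38% in P, 24% in AA and 40% in sP. Differences of that size would thus mostly be missed. The adjusted cut-off is easier to pass when many probe sets change, as in the simulated data. In the real P, AA and sP fits 0 probe sets were called, so the shares may be too high for these pairs.

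Opposite-scoring arrays lay beyond the midpoint of the lines in scores from 100 probe sets each of odd-numbered and of even-numbered chromosomes, computed without the array itself. Co-variation was Pearson r and Spearman rho after line means were removed, with 100000 permutations within lines. Whether animal numbers shared by the lines pair the arrays is not stated. Deviations of same-numbered arrays correlated at -0.11 to 0.50 in P and NP and at -0.18 to 0.77 in sP and sNP. The same number was the best match for 2 of 10 in P and NP and 1 of 8 in sP and sNP. These values do not settle it, and fits with the number as a block are given below. All 10 genes were named, with up to 4 called genes per other list and pair for the arrays as labelled, and the 10 genes most like the markers; without the opposite-scoring arrays the called genes of the microglial and myeloid list in each pair, and those of the complement and other cell type lists, were named. Alternatives covered the arrays in the fit, weights, trend, filter, scaling and the GAPDH ratio. AA 19, ANA 18, ANA 20 and LAD2 14 were left out as alternatives added after seeing the data, as was each line pair in turn.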

Additional observations from a re-analysis of the deposited data

Results flagged for a closer look

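Single arrays far from the rest of their line, by the gap to the nearest array over the range of the line, were found in 17 of 120 combinations of line and probe set (14.2%), where chance flags about 1 in 20. They lie in 12 arrays. LAD2 14 accounts for 4 of them, with C1qa at 11.32, C1qb at 9.40, Cd68 at 9.72 and Tyrobp at 8.40, each the highest LAD2 value. The sNP 1 array was lowest of its line for C1qb (8.95), C1qc (8.70) and Tyrobp (8.70). In the sP line, sP 5 was high for C1qa (10.45), sP 2 for C1qc (9.30) and sP 6 for Tyrobp (9.27), and sP 9 was low for C1qb (9.06). P 1 was high for C1qb (10.81), NP 3 low for C1qb (9.82), ANA 6 high for C1qa (10.73) and AA 19 low for Tyrobp (8.78). HAD1 29 was high for the dimmer Aif1 probe set (7.04), and HAD2 6 was high for Cd68 (7.23).

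The within-pair differences of Cx3cr1 (F of 6.10) and of both P2ry12 probe sets (F of 8.70 and 4.70) differed among the 5 pairs by limma's moderated F test. P2ry12 was 0.64 higher in HAD2 than in LAD2, and its differences in the other 4 pairs lay between -0.20 and -0.05 with the brighter probe set.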

How the results depend on the processing

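The count of called marker probe sets in HAD1 against LAD1 was 2, and became 4 with all 10 lines in 1 fit and 4 with array weights. It became 0 with LAD1 36 counted as HAD1 and 0 with LAD1 36 left out. Of all 31042 probe sets, 299 were called in the main fit, 785 with all lines in 1 fit, 700 with array weights and 180 without LAD1 36. The marker count ranged from 0 to 3 when each array was left out, beside 157 to 600 of all probe sets. In HAD2 against LAD2, where 3 were called, it ranged from 3 to 4, beside 1082 to 1730 of all probe sets. Averaged over pairs the count of 1 became 0 among the brighter 50% of probe sets, where Cx3cr1 was not tested. It became 0 without HAD1 and LAD1 and 0 without HAD2 and LAD2. It became 2 without P and NP, without AA and ANA, or without sP and sNP, when C1qa joined. The number of all probe sets called is not given for these fits, so the changes in count are not read as a result about the markers. Variation among pairs was called for 3 probe sets, and for 5 without the opposite-scoring arrays. With the animal number as a replicate block 0 marker probe sets were called in P against NP and 0 in sP against sNP, as without it. No called difference changed sign under these alternatives. The second P2ry12 probe set lost its variation among pairs when arrays were centred (adjusted p = 0.0531, limma) or quantile normalized again (0.0793). C1qa in HAD2 was called with all lines in 1 fit (adjusted p = 0.00262) and with array weights (0.0328). The number of arrays sets the precision, and the files give no measure of signal over background. The cause of these changes was not tested beyond what each alternative leaves out.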
